A study of Mus musculus with 100 samples.

Results

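The 7 genes Fpr1, Fpr2, Ccrl2, Cx3cr1, Ccr2, Ccr1 and Cxcr4 encode receptors for chemoattractants.
The ChIP-seq regions nearest to them were followed through every factor, histone mark and perturbation of the series.
A region was taken when the deposited annotation named one of these genes as the gene with the nearest transcription start site (TSS).
By that rule 856 of 610301 regions in 15 count tables belonged to the 7 genes.
Regions lying within 500 bp of each other were joined into 110 sites.
Ccr1 held 251 regions at 18 sites, Cxcr4 178 at 30, Ccrl2 129 at 16, Fpr2 98 at 14, Cx3cr1 72 at 9, Ccr2 67 at 13 and Fpr1 61 at 10.
The nearest start site gives a position and no regulatory link, and a region reported under one gene may act on a neighbour.

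All members are G protein-coupled receptors or close relatives of them, through which myeloid cells read gradients of chemokines and other attractants.
Fpr1 and Fpr2 bind formylated peptides released by bacteria and damaged mitochondria.
Ccr1 and Ccr2 bind CC chemokines, Cx3cr1 binds fractalkine and Cxcr4 binds Cxcl12, the chemokine that retains cells in the bone marrow.
Ccrl2 is an atypical receptor that binds the attractant chemerin and presents it without classical signalling.
Macrophages change this set of receptors when Toll-like receptor 4 (TLR4) detects bacterial lipid A.
This signal activates the NFκB subunit p65 and AP-1 proteins such as Fosl2, on enhancers that the lineage factor PU.1 keeps accessible.
NCoR and its partner HDAC3 form a corepressor complex, PGC1β is a coactivator, p300 is a histone acetyltransferase and ERK1 is a kinase downstream of TLR4.
Acetylation of histone H3 lysine 27 (H3K27ac) marks active promoters and enhancers.

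The cells were bone marrow-derived macrophages (BMDMs), grown from C57BL/6 mice of 8 to 12 weeks with M-CSF, starved of serum and then treated with vehicle (Veh) or Kdo2 lipid A (KLA), a TLR4 agonist, for 6 h.
NCoR, HDAC3, p65, Fosl2, PU.1, PGC1b, ERK1 and p300 were each profiled in wild type cells with Veh or KLA.
H3K27ac was profiled in NCoR flox/flox cells (called WT) and NCoR flox/flox, LysMCre cells (NKO), each with Veh or KLA.
It was also profiled in PGC1b flox/flox cells (Pgc1b flox) and PGC1b flox/flox, LysMCre cells (Pgc1b flox Cre), each with Veh or KLA.
A further H3K27ac experiment used wild type cells given DMSO with Veh, DMSO with KLA or the HDAC3 inhibitor RGFP966 with KLA.
PGC1b was also profiled in DMSO with Veh, DMSO with KLA and the ERK inhibitor LY3214996 (ERKi) with KLA, and NCoR in ERKi with KLA.
ERK1 and p300 were profiled in wild type bone marrow cultures before RANKL (Day0) and after 4 days with RANKL (Day4), which drives osteoclast formation. The ERK1 libraries of these cultures are described as NCoRWT, except for Day4 replicate 2.
The p300 libraries named Veh carry a time of 0 h in their labels, so that p300 with KLA for 6 h is compared with cells at 0 h, and the labels of some other groups give no time.
LysMCre deletes the floxed alleles in myeloid cells, and both floxed control groups carry the loxP sites.
Neither knockout allele was read by these assays, so that loss of NCoR or PGC1b was not measured here.
Each group held 2 libraries, which the labels call biological replicates without saying whether they came from separate mice, and the p-values measure only the spread between these libraries.

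Values are tags per 10 M (mega) tags of the library.
The libraries held between 4.30 M and 21.5 M tags, of which 2.79% to 52.8% lay in the regions of their table.
Regions were tested with edgeR at those library totals, and a region was called when its change exceeded 2-fold at an adjusted p under 0.05.
A scaling on the bulk of the regions (the trimmed mean of M values, TMM) is given beside a count over all members or of 1 gene where it moves the balance of higher and lower calls by more than 10 percentage points.
The shares of tags in regions differed between some groups, for p65 from 12.7% and 14.4% with Veh to 34.1% and 37.1% with KLA, and their part in the results was not tested.
Of 8 macrophage marker genes, all had a promoter region in the p300 KLA and 2 of the H3K27ac tables. Only 5 had one in the WT and NKO H3K27ac table, 6 in the p300 and 7 in the ERK1 table of Day0 and Day4. T cell and fibroblast markers had none in any of the 6 tables checked.
Of 6 osteoclast markers 4 had one in the p300 KLA table of macrophages, against 3 in both the p300 and the ERK1 table of Day0 and Day4. Up to 2 of 3 dendritic cell and 1 of 6 neutrophil markers had one, and 1 of 4 B cell markers had one in the p300 KLA table.
In such bulk samples fewer cells of a type and less signal per cell cannot be told apart.

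The sequences under 8 of the regions that carry the results are shown first, since the sites differ in which binding letters they hold.
Each is the 200 bp around the centre of a region, on the plus strand of mm10 as given by RefSeq (GRCm38.p6), in lower case with matches to 5 searched motifs in capitals.
The motifs, read on both strands, were GAGGAAG for PU.1, TGANTCA for AP-1, TTGCNNAA for C/EBP, TGACGT for the cyclic AMP response element (CRE) and the degenerate consensus of NFκB, given by its name alone.
None of them contains another.
The 8 windows were picked from 16 after their values and matches had been seen, and the other 8 held none of the 5 motifs.
The windows upstream of Fpr1 and downstream of Fpr2 bound p65 with KLA and hold only C/EBP matches as printed, although the windows around the NCoR and PU.1 centres of the same Fpr1 site, 1022 and 1038 bp upstream, also take in an NFκB match.
The windows of Ccr1 and of Cx3cr1 13290 bp downstream gained p65 and hold a PU.1 match and 2 and 1 NFκB matches.
The 2 Cxcr4 windows lost PU.1 and hold PU.1 matches.
Fpr1, 1012 bp upstream, intergenic, at chr17:17884852-17885051: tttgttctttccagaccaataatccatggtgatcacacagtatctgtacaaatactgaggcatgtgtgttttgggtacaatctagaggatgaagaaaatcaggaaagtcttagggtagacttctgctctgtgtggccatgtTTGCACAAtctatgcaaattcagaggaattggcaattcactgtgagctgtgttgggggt
Fpr2, 13171 bp downstream of the TSS, intergenic, at chr17:17900896-17901095: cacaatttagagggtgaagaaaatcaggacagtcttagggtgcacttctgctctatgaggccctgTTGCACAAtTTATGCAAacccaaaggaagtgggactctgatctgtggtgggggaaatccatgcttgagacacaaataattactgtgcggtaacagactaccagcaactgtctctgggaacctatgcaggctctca
Ccr1, 28400 bp downstream of the TSS, intergenic, at chr9:123940193-123940392: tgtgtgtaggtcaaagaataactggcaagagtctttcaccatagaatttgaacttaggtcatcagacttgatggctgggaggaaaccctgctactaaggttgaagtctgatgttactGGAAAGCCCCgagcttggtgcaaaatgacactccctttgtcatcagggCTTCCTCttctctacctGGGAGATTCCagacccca
Cx3cr1, 13290 bp downstream of the TSS, intron 1, at chr9:120054907-120055106: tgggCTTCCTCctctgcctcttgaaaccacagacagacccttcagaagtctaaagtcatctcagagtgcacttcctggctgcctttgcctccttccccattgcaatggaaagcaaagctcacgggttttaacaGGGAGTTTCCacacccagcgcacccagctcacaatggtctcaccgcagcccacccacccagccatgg
Cx3cr1, 9393 bp downstream of the TSS, intron 1, at chr9:120058804-120059003: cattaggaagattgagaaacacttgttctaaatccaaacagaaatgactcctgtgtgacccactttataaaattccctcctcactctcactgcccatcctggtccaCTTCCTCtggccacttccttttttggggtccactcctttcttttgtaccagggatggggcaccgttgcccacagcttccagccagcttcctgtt
Cxcr4, 1359 bp downstream of the TSS, intron 1, at chr1:128590841-128591040: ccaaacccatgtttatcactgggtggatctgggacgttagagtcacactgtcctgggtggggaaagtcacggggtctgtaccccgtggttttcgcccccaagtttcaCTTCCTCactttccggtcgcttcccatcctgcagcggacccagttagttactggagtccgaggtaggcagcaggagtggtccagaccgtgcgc
Cxcr4, 129808 bp upstream, intergenic, at chr1:128722008-128722207: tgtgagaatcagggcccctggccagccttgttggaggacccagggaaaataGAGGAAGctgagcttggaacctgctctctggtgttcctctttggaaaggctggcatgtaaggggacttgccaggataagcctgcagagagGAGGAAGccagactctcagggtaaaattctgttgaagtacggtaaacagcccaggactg
Ccr2, 30487 bp upstream, intergenic, at chr9:124071597-124071796: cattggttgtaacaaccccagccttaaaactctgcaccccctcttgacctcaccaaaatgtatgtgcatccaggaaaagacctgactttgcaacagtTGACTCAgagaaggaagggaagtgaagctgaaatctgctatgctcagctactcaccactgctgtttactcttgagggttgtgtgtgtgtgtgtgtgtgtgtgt

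The Fpr1 and Fpr2 windows align over 123 columns at 81.3% identity, and another pair of Fpr2 windows, 2067 and 27330 bp downstream of the TSS, aligns over 135 columns at 93.3%, the closest of 136 pairs of windows compared.
Reads from such near-identical stretches can be shared between copies, so values at both Fpr2 regions, 2067 and 27330 bp downstream, are uncertain. The region at 2067 bp is part of the Fpr2 site named below as 2.43 kb downstream.
Of all PU.1 regions 36.5% held the PU.1 string, against 21 of the 61 member regions, and of all p65 regions 7.61% held the NFκB string, against 5 of 80.
All 5 of these p65 regions were higher with KLA.
Among the member PU.1 regions the PU.1 string lay in 10 of the 17 that were lower with KLA, in 0 of the 8 that were higher and in 11 of the 36 that were not called. Of the 17 lower regions 15 belonged to Cxcr4, and of the 8 higher 4 belonged to Fpr1 and 3 to Fpr2, so this contrast is largely between loci.
The p65 regions held the AP-1 string in 21.7% of all and 10 of 80 member windows, C/EBP in 16.9% and 14, PU.1 in 22% and 15, and CRE in 4.08% and 4.
In the PU.1 table the shares of all and of member windows were 13.9% and 8 for AP-1, 3.18% and 3 for NFκB, 12.2% and 8 for C/EBP, and 3.58% and 1 for CRE.
A match is a description of the letters and not a binding site, and these counts carry no test.

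To ask how TLR4 activation redistributed the factors at these loci, the Veh and KLA libraries of each factor were compared.
Called regions were only higher at Fpr1 and Fpr2, mostly higher at Ccrl2 and mostly lower at Cxcr4. Ccr1, Ccr2 and Cx3cr1 also held regions of both kinds.
For NCoR 20 of 80 tested member regions were higher with KLA and 17 lower, against 23.4% and 16.7% of all regions tested.
HDAC3 was higher at 20 and lower at 10 of 72 (27.5% and 11.3% of all). It was lower at 17 under TMM, against 7913 of all 48502 regions.
For p65 the numbers were 43 higher and 6 lower of 80 (57.0% and 5.43% of all). Under TMM they were 25 and 17, against 14586 and 11185 of all 52629 regions.
At library totals these 3 pairs of shares lie near those of all regions.
Fosl2 was higher at 12 and lower at 3 of 62 (11.4% and 4.19% of all). TMM gave 16 and 10, against 6480 and 3137 of all 31283 regions.
No member was called for Fosl2 when either Veh library was left out (8 and 7 reached an unadjusted p under 0.05 in those edgeR fits).
PU.1 was higher at 8 and lower at 17 of 61 (4.53% and 21.7%), and PGC1b higher at 20 and lower at 8 of 57 (16.4% and 6.35%).
ERK1 was higher at 9 and lower at 1 of 47 (10.3% and 2.53%).
Among these 8 factors p300 had the most called members, with 37 higher and 27 lower of 100 (42.1% and 12.9%). TMM gave 33 and 43 for p300, against 22283 and 16232 of all 67998 regions.
In the separate PGC1b experiment with DMSO in both groups, 25 of 73 were higher and 2 lower (16.4% and 1.23%). There TMM gave 16 and 4, against 4496 and 1642 of all 53474 regions.

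**Figure D1:**
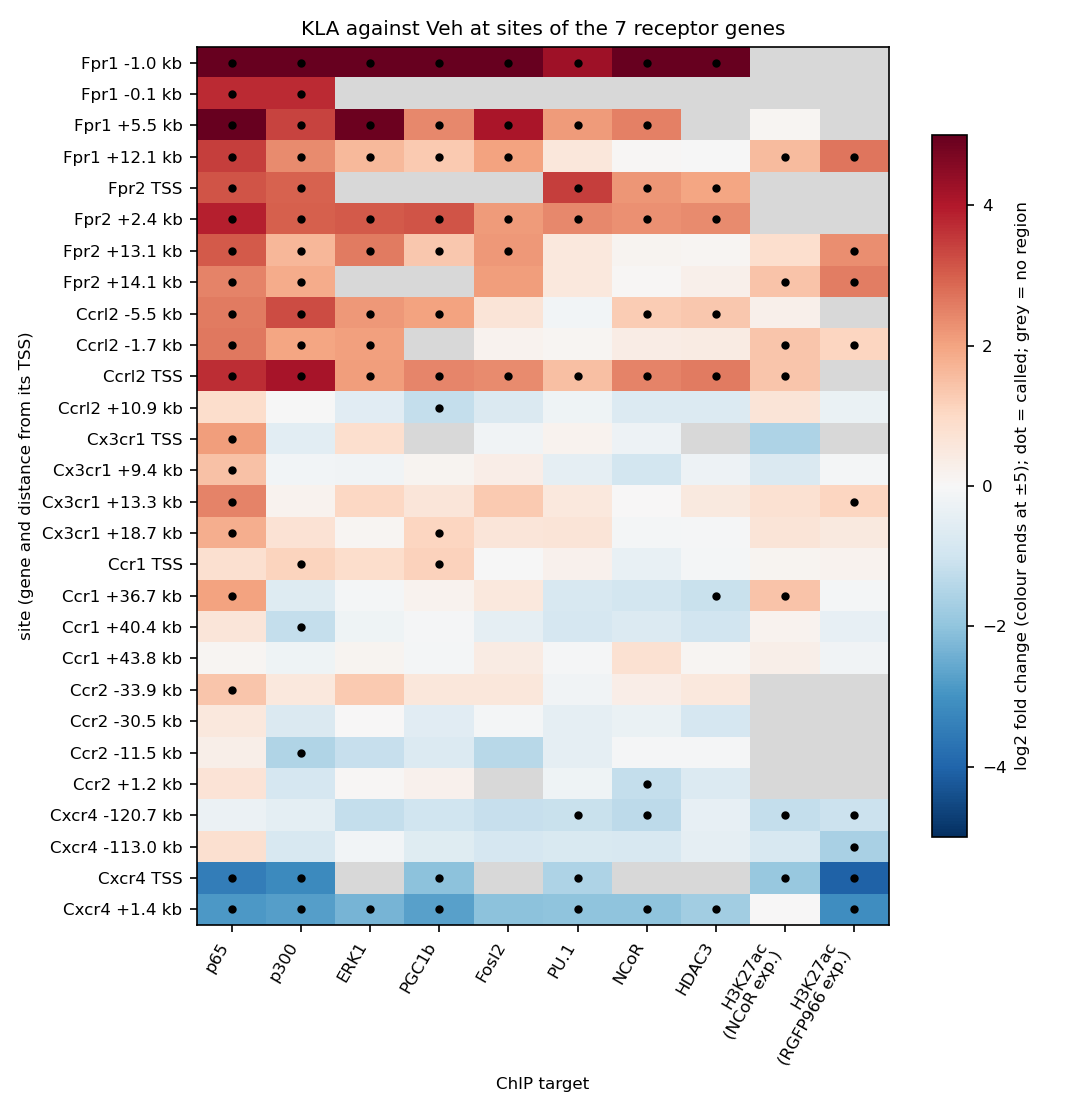
Heat map of the log2 fold change of KLA against Veh at the named member sites (rows, labelled by gene and distance to the TSS in kb) for the 8 factors and for H3K27ac in 2 experiments (columns). A dot marks a called region, grey a site with no region in that table, and the colours end at ±5. The Fpr1 and Fpr2 rows are red in most columns and the Cxcr4 rows near the TSS are blue.

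With KLA each of the 8 factors was called higher at 1 or more regions of Fpr1 and of Fpr2, as it also was at Ccrl2.
No region of either gene was called lower in any of the 8 factors, also under TMM.
The acetyltransferase p300 was higher at 10 of 10 Fpr1 and 11 of 11 Fpr2 regions and p65 at 7 of 7 and 9 of 10.
The Fpr1 gene lies on chromosome 17 from 17876471 to 17883939 on the minus strand.
Its most changed site, 1.01 kb upstream (17884806 to 17885117, intergenic), is also 2873 bp from the start of Fpr2.
There p65 counted 0.876 and 3.73 tags per 10 M with Veh and 614 and 629 with KLA (log2 fold change 8.04, SE 0.35, adjusted p = 6.4e-07).
The p300 values were 10.7 and 25 with Veh and 534 and 599 with KLA (log2 fold change 5.0, SE 0.23, adjusted p = 1.4e-10).
The PU.1 values were 8.79 and 9.96 with Veh and 178 and 173 with KLA (log2 fold change 4.22, SE 0.20, adjusted p = 2.3e-43).
For each of the 3 proteins both KLA libraries stood far above both Veh libraries.
HDAC3 went from 2.18 and 2.21 to 181 and 211 (log2 fold change 6.41, SE 0.53, adjusted p = 2.7e-30).
NCoR went from 0 and 1.18 to 183 and 164, and its Veh libraries held 1 tag there in all against 463 with KLA, a ratio of 291 with a 95% counting interval of 52.0 to 11532. PGC1b was near absent with Veh, at 1.76 and 1.39, and reached 105 and 73.8 with KLA (log2 fold change 5.76, SE 0.50, adjusted p = 1.4e-06).
In the second PGC1b experiment it was 6.50 and 8.74 in DMSO with Veh and 219 and 149 in DMSO with KLA.
The coactivator was thus higher with KLA in both experiments.
ERK1 had 3 tags with Veh and 138 with KLA (ratio 44.6, interval 14.9 to 219).
Fosl2 went from 5.64 and 0 to 417 and 724 (log2 fold change 7.73, SE 0.98, adjusted p = 1.7e-11).
The site thus held few tags with Veh and was bound by all 8 factors with KLA, with no overlap between Veh and KLA libraries in any of them. The call for Fosl2 was lost without Veh replicate 1 or Veh replicate 2 (log2 fold change 6.61 to 11.73 with 1 library left out).

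Within the gene, the Fpr1 site 5.52 kb downstream of the TSS in intron 1 already held some NCoR and PU.1 with Veh.
NCoR counted 33.5 and 38.8 with Veh and 191 and 223 with KLA (log2 fold change 2.52, SE 0.25, adjusted p = 8.1e-05).
PU.1 counted 21.2 and 21.2 with Veh and 92.9 and 93 with KLA (log2 fold change 2.13, SE 0.20, adjusted p = 1.5e-18).
Both proteins were present in each Veh library, unlike p65, which went from 4.38 and 1.86 to 327 and 328 (log2 fold change 6.65, SE 0.35, adjusted p = 6.4e-07).
At the same intron p300 rose from 25.7 and 18.4 to 223 and 239 (log2 fold change 3.38, SE 0.21, adjusted p = 2.2e-09).
All 4 were higher in both KLA libraries.
The intergenic Fpr1 site 12.1 kb downstream (17871268 to 17872268) behaved otherwise, since its NCoR and HDAC3 were present before KLA.
NCoR there was 209 and 347 with Veh and 293 and 288 with KLA (log2 fold change 0.06, SE 0.23, adjusted p = 0.84), and the groups overlapped.
HDAC3 was 269.9 and 260.5 with Veh and 258 and 259.9 with KLA (log2 fold change -0.03, SE 0.38, adjusted p = 0.96), and the means differed by less than the 2 Veh libraries did from each other.
At the same site p65 rose from 36.8 and 50.3 to 465 and 486 (log2 fold change 3.45, SE 0.23, adjusted p = 1.1e-06) and p300 from 96.5 and 92 to 466 and 494 (log2 fold change 2.35, SE 0.14, adjusted p = 1.7e-09).
The kinase ERK1 rose from 42.5 and 32.4 to 125 and 102 (log2 fold change 1.61, SE 0.37, adjusted p = 0.019).
PU.1 was 163 and 167 with Veh and 253 and 229 with KLA, under the 2-fold threshold (log2 fold change 0.55, SE 0.10, adjusted p = 1.7e-07).
At the Fpr1 TSS itself p65 was 0 and 9.32 with Veh and 54.8 and 67 with KLA.
For p300 the TSS had 5.64 and 3.94 with Veh and 62.9 and 64.9 with KLA, so that both KLA levels were lower than at the upstream site.
A further intragenic p300 region, 3.9 kb downstream, held 1 tag with Veh and 149 with KLA (ratio 122, interval 21.6 to 4853). Leaving out Veh replicate 2, KLA replicate 1 or KLA replicate 2 ended the call for ERK1 at 12.1 kb (log2 fold change 1.42 to 1.81 with 1 library left out). Without KLA replicate 2, p65 at the TSS was no longer called (log2 fold change 2.70 to 9.38 with 1 library left out).

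Fpr2, whose product also binds serum amyloid A and lipid mediators, lies on chromosome 17 from 17887824 to 17893952 on the plus strand, and its start is 3885 bp from that of Fpr1.
Its site 13.1 kb downstream of the TSS (17900466 to 17901466, intergenic) was found in all 15 tables.
As at Fpr1 12.1 kb downstream, NCoR was not called there, at 258 and 232 with Veh and 273 and 268 with KLA (log2 fold change 0.14, SE 0.17, adjusted p = 0.53).
Nor was HDAC3 called, at 277 and 225 with Veh and 241 and 304 with KLA (log2 fold change 0.11, SE 0.38, adjusted p = 0.84), where the libraries of the 2 groups overlapped.
By contrast p65 rose from 63 and 88.6 to 606 and 673 (log2 fold change 3.08, SE 0.22, adjusted p = 1.5e-06).
The acetyltransferase followed, with p300 from 204 and 129 to 491 and 573 (log2 fold change 1.67, SE 0.18, adjusted p = 7.2e-07).
ERK1 was 25.2 and 32.4 with Veh and 169.7 and 186 with KLA (log2 fold change 2.61, SE 0.35, adjusted p = 0.0045), one of the 9 member regions at which this kinase was called higher.
Fosl2 went from 133 and 103 to 368 and 675 (log2 fold change 2.15, SE 0.69, adjusted p = 0.016).
PU.1 was 155 and 171 with Veh and 243 and 226 with KLA, under the 2-fold threshold (log2 fold change 0.53, SE 0.10, adjusted p = 4.8e-07).
Thus NCoR and HDAC3 were not called at the 2 downstream Fpr sites, where p65, p300 and ERK1 rose. For Fosl2 the call was lost without Veh replicate 1 or Veh replicate 2 (log2 fold change 1.65 to 2.52 with 1 library left out).

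Nearer the gene, the Fpr2 site 2.43 kb downstream in intron 1 gained corepressor and activator together. For NCoR, p65, p300 and PU.1 this site joins more than 1 region. The values below are those of 1 region for each protein, at 2454 bp for NCoR and 2487 bp for PU.1. For NCoR, p65 and p300 the heat map of the named sites shows another region, with smaller log2 fold changes of 2.30, 3.89 and 2.97.
NCoR counted 23.9 and 12.9 with Veh and 161 and 156 with KLA (log2 fold change 3.10, SE 0.32, adjusted p = 1.0e-04).
The NFκB subunit p65 counted 7.88 and 11.2 with Veh and 216 and 174 with KLA (log2 fold change 4.35, SE 0.33, adjusted p = 2.2e-06).
Likewise p300 counted 12.5 and 1.97 with Veh and 220.0 and 211 with KLA (log2 fold change 4.86, SE 0.34, adjusted p = 7.7e-09).
In each of the 3 both KLA libraries exceeded both Veh libraries.
PU.1, already present at 48.6 and 28.6 with Veh, reached 219 and 196 (log2 fold change 2.39, SE 0.14, adjusted p = 3.8e-34).
At the Fpr2 TSS PU.1 rose from 8.79 and 11.2 to 103 and 114 (log2 fold change 3.44, SE 0.23, adjusted p = 1.6e-29).
NCoR went from 8.36 and 8.24 to 42.9 and 34.6 (log2 fold change 2.20, SE 0.49, adjusted p = 0.0045) and p65 from 7.88 and 9.32 to 60.1 and 91.7 (log2 fold change 3.13, SE 0.44, adjusted p = 1.3e-04).
None of these groups overlapped.
About 30.0 kb downstream of Fpr2 HDAC3 held 3 tags with Veh and 206 with KLA (ratio 96.0, interval 32.4 to 470).
NCoR held there 2 and 201 (ratio 63.2, interval 17.3 to 526).
Where the Veh libraries held no tag at all, the fold is a lower bound against a floor of 3 tags over the group.
By that floor NCoR was at least 23.5-fold and p65 at least 27.9-fold higher 18.3 kb downstream of Fpr2.
Fosl2 was at least 83.2-fold higher 30.1 kb downstream, PGC1b at least 35.7-fold 27.3 kb downstream and p300 at least 38.2-fold 0.8 kb upstream. NCoR at the TSS lost its call without KLA replicate 1 or KLA replicate 2 (log2 fold change 2.04 to 2.35 with 1 library left out).

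**Figure D2:**
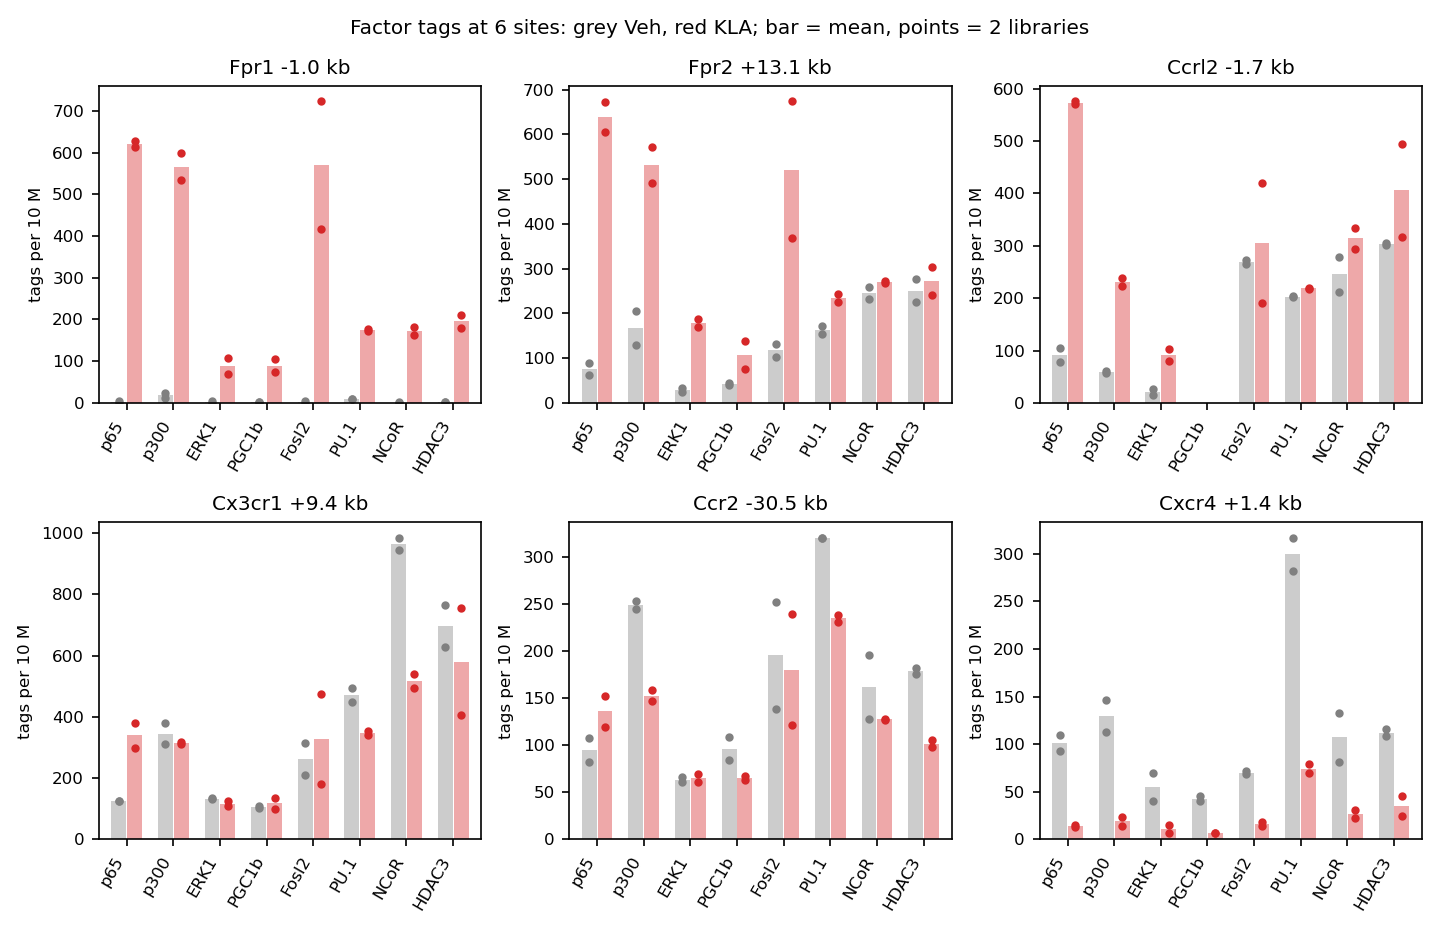
Tags per 10 M at 1 site of each of 6 members for the 8 factors, with Veh in grey and KLA in red. Bars are means and the 2 points on each are the libraries. At the Fpr1 site all Veh bars are close to 0, at the Fpr2 site NCoR and HDAC3 are level between Veh and KLA, and at the Cxcr4 site the KLA bars are the lower ones.

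Ccrl2 (chromosome 9, 111054834 to 111057518, minus strand) gained factors at its promoter and upstream of it.
Among its tested regions p65 was higher at 9 of 12 (5 under TMM), NCoR at 5 of 14, HDAC3 at 5 of 12, p300 at 5 of 13 and PU.1 at 1 of 10 (2 under TMM).
Lower regions were 1 each for PU.1, PGC1b and p300, and none for the other factors, but under TMM 2 for HDAC3, 2 for p300, 1 for PGC1b and 0 for PU.1.
At the TSS p65 counted 19.3 and 28 with Veh and 293 and 311 with KLA (log2 fold change 3.68, SE 0.26, adjusted p = 1.5e-06).
Its p300 counts were 10.7 and 11.2 with Veh and 179.6 and 202 with KLA (log2 fold change 4.12, SE 0.24, adjusted p = 1.1e-09).
The corepressor rose at the same promoter, NCoR from 51.4 and 18.8 to 213 and 183 (log2 fold change 2.49, SE 0.35, adjusted p = 4.3e-04).
HDAC3 rose from 27.6 and 55.3 to 209 and 299 (log2 fold change 2.58, SE 0.38, adjusted p = 3.1e-10).
PGC1b was 5.29 and 7.44 with Veh and 35 and 34.9 with KLA (log2 fold change 2.43, SE 0.48, adjusted p = 0.0013).
In none of these 5 did a Veh library reach a KLA library.
PU.1, 541 bp upstream, went from 22.2 and 36.7 to 79.2 and 83.5 (log2 fold change 1.49, SE 0.20, adjusted p = 2.9e-11). The intergenic site 1.74 kb upstream (111058542 to 111059863) was occupied before KLA, with NCoR at 213 and 278 with Veh and 335 and 295 with KLA, which was not called (log2 fold change 0.36, SE 0.19, adjusted p = 0.15).
There p65 rose from 77.9 and 105 to 576 and 569.9 (log2 fold change 2.65, SE 0.21, adjusted p = 2.6e-06) and ERK1 from 15.7 and 26.6 to 79.9 and 102 (log2 fold change 2.07, SE 0.45, adjusted p = 0.016).
A site 5.49 kb upstream of Ccrl2 combined a PU.1 level that was not called, 301 and 324 with Veh and 281 and 290.0 with KLA, with higher p65 and p300.
Here p65 rose from 77 and 72.7 to 445 and 452 (log2 fold change 2.58, SE 0.20, adjusted p = 2.3e-06) and p300 from 30.7 and 20.4 to 259 and 235 (log2 fold change 3.27, SE 0.21, adjusted p = 3.2e-09).
On the far side of the gene, 10.9 kb downstream of the TSS, values went the other way.
NCoR was 209 and 262 with Veh and 154 and 138 with KLA, under the 2-fold threshold (log2 fold change -0.69, SE 0.20, adjusted p = 0.017), and PGC1b fell from 40 and 38.6 to 17.5 and 16.6 (log2 fold change -1.21, SE 0.40, adjusted p = 0.034).
At 25 kb upstream p65 was at least 38.7-fold higher with KLA, since its Veh libraries held no tag there. The call for HDAC3 at the Ccrl2 TSS was lost without Veh replicate 1 (log2 fold change 2.19 to 3.19 with 1 library left out). Leaving out KLA replicate 2 ended the call for ERK1 at 1.74 kb (log2 fold change 1.77 to 2.52 with 1 library left out). Without Veh replicate 1 or Veh replicate 2, PGC1b at 10.9 kb was no longer called (log2 fold change -1.24 to -1.16 with 1 library left out).

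Cx3cr1 (chromosome 9, 120048683 to 120068296, minus strand) carried its strongest binding inside its long first intron.
The site 9.41 kb downstream of the TSS (120058400 to 120059400) counted 945 and 985 NCoR tags per 10 M with Veh and 541 and 493 with KLA, a decline that passed the adjusted p but not the 2-fold threshold (log2 fold change -0.90, SE 0.15, adjusted p = 0.001).
HDAC3 at this site was 767 and 627 with Veh and 406 and 755 with KLA, groups that overlapped (log2 fold change -0.27, SE 0.45, adjusted p = 0.67).
PU.1 was 449 and 495 with Veh and 342 and 352 with KLA (log2 fold change -0.44, SE 0.08, adjusted p = 5.0e-07).
The NCoR level with Veh was above that at any other site named here, which holds for tags per 10 M without correction for region size.
p65 was called higher at all 4 tested Cx3cr1 regions, but at 1 of 4 under TMM.
At 9.41 kb it was 124 and 124 with Veh and 299 and 379.7 with KLA (log2 fold change 1.45, or 0.22 under TMM, where it was not called).
At 13.3 kb it was 63.9 and 48.5 with Veh and 296 and 339 with KLA (log2 fold change 2.49, SE 0.23, adjusted p = 7.4e-06, and 1.26 under TMM, still called).
At the TSS p65 was 24.5 and 20.5 with Veh and 94.8 and 97.1 with KLA (log2 fold change 2.09, or 0.86 under TMM).
At 18.7 kb, in the 3′ untranslated part of exon 2, it was 61.3 and 53.1 with Veh and 191 and 216 with KLA (log2 fold change 1.83, or 0.60 under TMM).
Both KLA libraries were above both Veh libraries at each of these 4 sites.
The 13.3 kb site, whose sequence holds a PU.1 and an NFκB match, had PU.1 at 149 and 121 with Veh and 206 and 191 with KLA (log2 fold change 0.54, SE 0.10, adjusted p = 1.9e-06).
NCoR there was 210.3 and 300.1 with Veh and 262 and 255 with KLA, which overlapped.
p300 was lower at 4 of 8 tested Cx3cr1 regions (5 under TMM) and higher at none.
At the TSS it was 134 and 105 with Veh and 83.4 and 83.2 with KLA, which was not called (log2 fold change -0.52, SE 0.19, adjusted p = 0.027).

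Ccr2, the receptor for Ccl2 that lets monocytes leave the marrow, lies on chromosome 9 from 124101918 to 124109140 on the plus strand, 133226 bp from the start of Ccr1.
Few of its regions were called.
NCoR was lower at 1 of 6, HDAC3 higher at 1 of 6 (1 higher and 1 lower under TMM), p65 higher at 2 of 7 (0 higher and 1 lower under TMM) and p300 higher at 2 and lower at 2 of 8 (2 and 5 under TMM), and no region was called for PU.1 (6 tested), PGC1b (4), Fosl2 (4) or ERK1 (5).
Its most heavily bound site, 30.5 kb upstream (124071544 to 124071847, intergenic), counted 321 and 319.9 PU.1 tags per 10 M with Veh and 239 and 231 with KLA (log2 fold change -0.45, SE 0.09, adjusted p = 2.3e-06).
NCoR there was 128 and 195 with Veh and 128 and 127 with KLA with overlapping groups (log2 fold change -0.34, SE 0.24, adjusted p = 0.26).
For p65 the values were 82.3 and 108 with Veh and 119.5 and 153 with KLA (log2 fold change 0.52, SE 0.25, adjusted p = 0.09).
For p300 they were 244 and 254 with Veh and 159 and 147 with KLA (log2 fold change -0.70; -1.22 under TMM, where it was called).
The site was therefore bound before and after KLA, with lower PU.1 and p300 in both KLA libraries but by less than 2-fold.
In intron 1, 1.24 kb downstream of the TSS, NCoR fell from 105 and 140.1 to 57.5 and 49.8 (log2 fold change -1.19, SE 0.27, adjusted p = 0.0047), with PU.1 at 129 and 156 with Veh and 123 and 118 with KLA.
At 11.5 kb upstream p300 fell from 72.1 and 59.1 to 24 and 22.7 (log2 fold change -1.49, SE 0.29, adjusted p = 3.3e-04).
PU.1 was 224 and 251 with Veh and 177 and 172 with KLA there (log2 fold change -0.44, SE 0.09, adjusted p = 2.1e-05).
At 33.9 kb upstream p65 was 19.3 and 80.2 with Veh and 125 and 131 with KLA (log2 fold change 1.37, SE 0.46, adjusted p = 0.021; 0.18 under TMM, not called), where the 2 Veh libraries lay far apart.
At 22.3 kb upstream p300 held 3 tags with Veh and 57 with KLA (ratio 15.6, interval 5.06 to 77.7). For NCoR in intron 1 the call was lost without Veh replicate 2, KLA replicate 1 or KLA replicate 2 (log2 fold change -1.39 to -0.97 with 1 library left out). p65 at 33.9 kb lost its call without Veh replicate 1, KLA replicate 1 or KLA replicate 2 (log2 fold change 0.67 to 2.72 with 1 library left out).

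Ccr1 (chromosome 9, 123962126 to 123968692, minus strand), a receptor for Ccl3 and Ccl5, held the most regions, in an intergenic array reaching a site 45.3 kb beyond its TSS, and neighbouring sites moved in opposite directions.
NCoR was higher at 2 and lower at 7 of its 25 tested regions and HDAC3 higher at 1 and lower at 7 of 23.
By contrast p65 was higher at 9 and lower at 1 of 24 (2 and 8 under TMM) and p300 higher at 6 and lower at 4 of 25 (3 and 11 under TMM).
At 14.9 kb the 6 factors given next were all lower with KLA.
NCoR fell from 168 and 151 to 22.7 and 31.8 (log2 fold change -2.54, SE 0.28, adjusted p = 1.3e-04), and HDAC3 from 159 and 141 to 33.4 and 49.2 (log2 fold change -1.91, SE 0.39, adjusted p = 7.6e-06).
The acetyltransferase p300 fell from 130.4 and 137 to 17.9 and 20 (log2 fold change -2.82, SE 0.24, adjusted p = 6.1e-08).
PU.1 fell from 179 and 177 to 54.3 and 70.1 (log2 fold change -1.52, SE 0.13, adjusted p = 3.2e-21), so that corepressor, acetyltransferase and lineage factor all declined.
Fosl2 fell from 141 and 90.2 to 14 and 16.4 (log2 fold change -2.90, SE 0.90, adjusted p = 0.012), and p65 from 35.9 and 35.4 to 14 and 18.5 (log2 fold change -1.13, SE 0.44, adjusted p = 0.043).
All KLA libraries of these 6 proteins were below all Veh libraries.
At 31.9 kb the direction was opposite: p65 rose from 35 and 33.6 to 175 and 229 (log2 fold change 2.55, SE 0.27, adjusted p = 1.6e-05), and p300 from 42.6 and 63.7 to 237 and 260.0 (log2 fold change 2.23, SE 0.19, adjusted p = 8.7e-08).
PGC1b rose there from 12.3 and 14.9 to 53.5 and 49.2 (log2 fold change 1.90, SE 0.39, adjusted p = 0.0017), and NCoR was 122 and 100.0 with Veh and 206 and 154 with KLA (log2 fold change 0.70, SE 0.23, adjusted p = 0.03). The region 28400 bp downstream, chosen here after its values were seen, had almost no p65 with Veh, 3.50 and 0, and 70.8 and 86.9 with KLA (log2 fold change 5.38, SE 0.66, adjusted p = 4.9e-05).
HDAC3 went from 12.4 and 6.64 to 41 and 50.9 and p300 from 6.89 and 11.8 to 43.5 and 64.3.
Its sequence above holds a PU.1 match and 2 NFκB matches.
Little more than 1 kb away, at 27.1 kb, NCoR fell from 178 and 238 to 82.6 and 80.9 (log2 fold change -1.35, SE 0.22, adjusted p = 0.001), and p300 fell from 223 and 173 to 86.5 and 92.4 (log2 fold change -1.15, SE 0.18, adjusted p = 3.7e-05). The call for Fosl2 at 14.9 kb was lost without Veh replicate 1 or Veh replicate 2 (log2 fold change -3.19 to -2.55 with 1 library left out). Leaving out KLA replicate 1 or KLA replicate 2 ended the call for p65 at 14.9 kb (log2 fold change -1.34 to -0.95 with 1 library left out). Without Veh replicate 1, HDAC3 at 14.9 kb was no longer called (log2 fold change -2.16 to -1.60 with 1 library left out). For PGC1b at 31.9 kb the call was lost without Veh replicate 1 (log2 fold change 1.78 to 2.05 with 1 library left out). HDAC3 at 28400 bp lost its call without Veh replicate 2 (log2 fold change 1.87 to 2.76 with 1 library left out). The call for p300 at 27.1 kb was lost without Veh replicate 1 (log2 fold change -1.32 to -0.96 with 1 library left out).

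The 2 largest Ccr1 sites lay farther out, at 36.7 kb (123930849 to 123932729) and 40.4 kb (123927250 to 123929370).
At 36.7 kb NCoR was 435 and 434 with Veh and 219.5 and 237 with KLA (log2 fold change -0.93, SE 0.17, adjusted p = 0.0015).
PU.1 was 438 and 443 with Veh and 257 and 247 with KLA (log2 fold change -0.81, SE 0.08, adjusted p = 2.5e-16), so that both stayed within 2-fold.
There p65 rose from 57.8 and 55.9 to 246 and 219.6 (log2 fold change 2.03, SE 0.23, adjusted p = 2.5e-05, and 0.81 under TMM, not called).
At 40.4 kb p300 fell from 335 and 312 to 144 and 135 (log2 fold change -1.21, SE 0.14, adjusted p = 2.6e-06).
The Ccr1 TSS changed less: NCoR was 237 and 173 with Veh and 173 and 142 with KLA, groups that overlapped (log2 fold change -0.38, SE 0.22, adjusted p = 0.18).
PGC1b was 38.8 and 33.9 with Veh and 104 and 61.8 with KLA (log2 fold change 1.17, SE 0.33, adjusted p = 0.015).
For p300 the values were 48.9 and 66.4 with Veh and 129 and 117 with KLA (log2 fold change 1.10, SE 0.21, adjusted p = 3.1e-04, and 0.57 under TMM, not called).
At this promoter both KLA libraries were above both Veh libraries for PGC1b and p300, and neither was for NCoR. Leaving out Veh replicate 1, Veh replicate 2 or KLA replicate 1 ended the call for PGC1b at the Ccr1 TSS (log2 fold change 0.77 to 1.52 with 1 library left out). Without Veh replicate 1, p300 at the Ccr1 TSS was no longer called (log2 fold change 0.89 to 1.33 with 1 library left out).

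**Figure D3:**
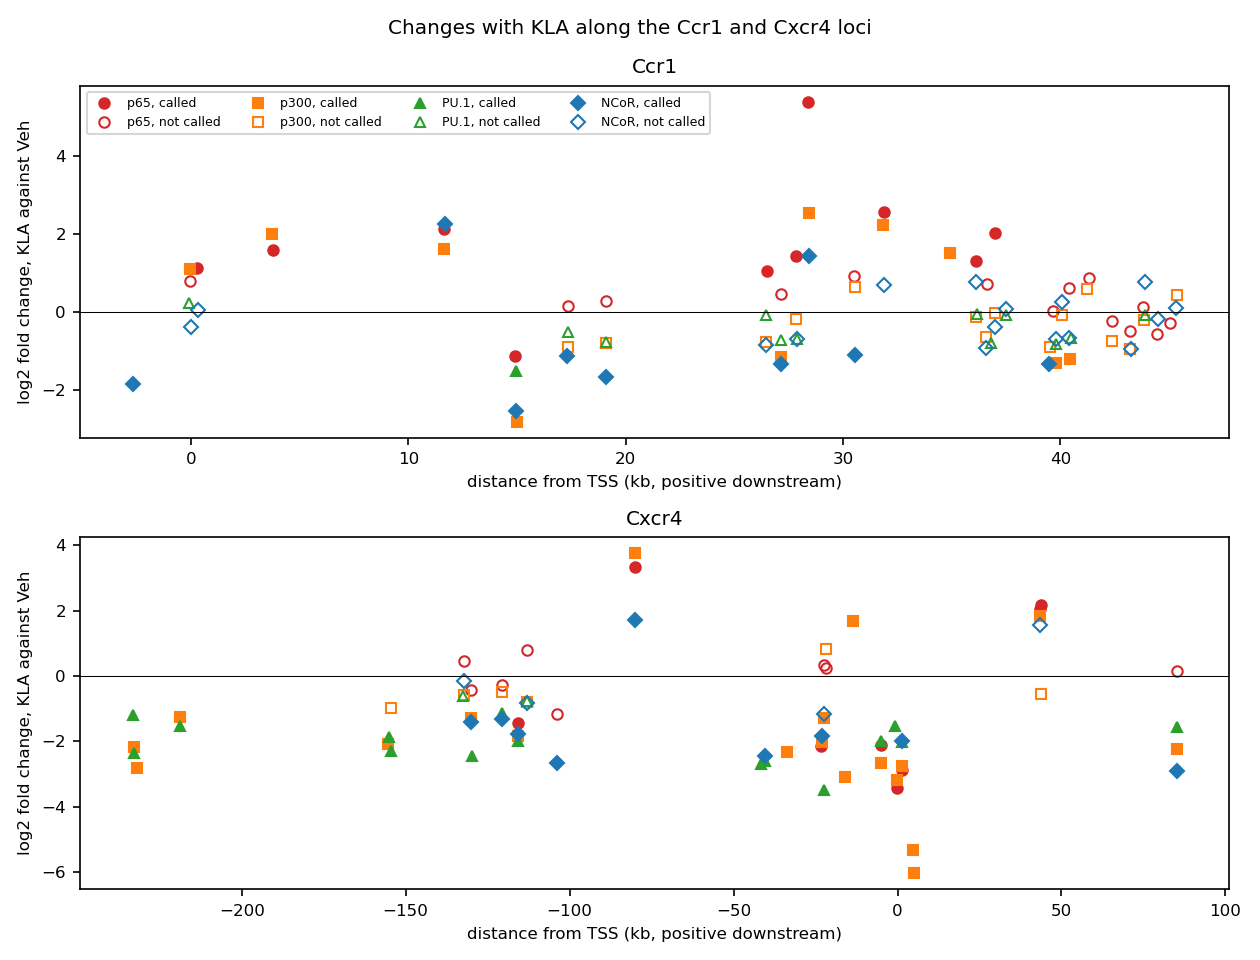
Log2 fold change of KLA against Veh for p65, p300, PU.1 and NCoR at every tested region of Ccr1 and Cxcr4, plotted against distance to the TSS (kb). Filled points are called regions. Ccr1 points lie on both sides of 0 within a few kb of each other, and most filled Cxcr4 points lie below 0.

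Cxcr4 (chromosome 1, 128588199 to 128592299, minus strand) had less PU.1 and p300 with KLA at most of its tested regions.
PU.1 was lower at 15 of 17 tested regions and higher at none (13 lower under TMM), and p300 lower at 16 and higher at 3 of 25 (20 and 2 under TMM).
NCoR was lower at 8 and higher at 1 of 13, and PGC1b lower at 7 and higher at 1 of 13. HDAC3 was more even, lower at 3 and higher at 2 of 12 (5 and 2 under TMM).
p65, called higher at 43 of the 80 tested regions over all members, was lower at 5 and higher at 3 of 16 here (8 and 1 under TMM).
At the site 1.38 kb downstream of the TSS (128590351 to 128591351, intron 1) p65 fell from 92.8 and 110.0 to 14.7 and 13 (log2 fold change -2.86, SE 0.35, adjusted p = 4.5e-05).
PU.1 fell from 282 and 317 to 69.3 and 79 (log2 fold change -2.01, SE 0.11, adjusted p = 4.1e-37) and p300 from 146 and 112 to 23.5 and 14.6 (log2 fold change -2.75, SE 0.27, adjusted p = 3.3e-07).
The same site lost corepressor and coactivator alike.
NCoR fell from 81.3 and 133 to 22.7 and 30.4 (log2 fold change -2.0, SE 0.35, adjusted p = 0.0012) and HDAC3 from 108 and 116 to 24.6 and 45.7 (log2 fold change -1.76, SE 0.40, adjusted p = 8.4e-05).
PGC1b fell from 45.2 and 40 to 6.55 and 6.29 (log2 fold change -2.72, SE 0.47, adjusted p = 4.0e-04).
ERK1 fell there from 69.2 and 40.5 to 14.8 and 6.81 (log2 fold change -2.31, SE 0.61, adjusted p = 0.031), the 1 member region at which ERK1 was lower.
Every KLA library was below every Veh library for all 7 proteins.
At the TSS p65 was 77.9 and 55.9 with Veh and 8.01 and 4.10 with KLA (log2 fold change -3.44, SE 0.48, adjusted p = 1.2e-04).
The p300 values at the TSS were 77.1 and 106 with Veh and 10.2 and 9.73 with KLA (log2 fold change -3.18, SE 0.32, adjusted p = 3.8e-07).
A region 5134 bp downstream went from 122 p300 tags to 2 (74.5-fold lower, interval 20.2 to 622).

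Losses at Cxcr4 reached far upstream.
At 129.9 kb, where the sequence holds 2 PU.1 matches, PU.1 fell from 249.8 and 249.6 to 45.8 and 46.5 (log2 fold change -2.43, SE 0.13, adjusted p = 2.3e-39).
NCoR fell there from 208 and 220.1 to 75.3 and 86.5 (log2 fold change -1.40, SE 0.21, adjusted p = 5.6e-04).
It also fell at 121 kb from 202 and 225 to 80.2 and 91.3 (log2 fold change -1.31, SE 0.21, adjusted p = 8.0e-04).
At 113 kb (128704775 to 128705775), the most heavily bound of the upstream sites named here, NCoR was 468 and 665 with Veh and 348 and 297 with KLA (log2 fold change -0.81, SE 0.20, adjusted p = 0.007).
PU.1 was 282 and 302 with Veh and 179 and 162 with KLA (log2 fold change -0.77, SE 0.09, adjusted p = 3.5e-13), and both were under the 2-fold threshold.
An exception stood at 80.2 kb upstream, where p65 rose from 9.63 and 4.66 to 80.1 and 66.4 (log2 fold change 3.33, SE 0.46, adjusted p = 1.1e-04, and 2.11 under TMM, still called). For ERK1 at 1.38 kb the call was lost without Veh replicate 1, KLA replicate 1 or KLA replicate 2 (log2 fold change -2.97 to -1.87 with 1 library left out). HDAC3 at 1.38 kb lost its call without Veh replicate 1 or Veh replicate 2 (log2 fold change -2.18 to -1.30 with 1 library left out).

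H3K27ac was read as a measure of promoter and enhancer activity at accessible regions, in 1000 bp windows for the RGFP966 and Pgc1b experiments.
The called regions were higher with KLA at the Fpr loci and mostly lower at Cxcr4, though not every region was called in every experiment. At the Cxcr4 site 1.38 kb downstream the log2 fold change was -3.12 in DMSO but 0.03 in the WT of the NKO experiment. In that experiment 3 of 6 Cxcr4 regions were called lower in WT and 1 of 6 in NKO.
No H3K27ac region was assigned to Ccr2 in any of the 3 tables.
With KLA in DMSO 6 of 24 tested member regions were higher and 7 lower, against 6.73% and 28.1% of all, and the 7 lower regions all belonged to Cxcr4.
At Fpr1, 12.2 kb downstream, H3K27ac rose from 83.9 and 85.5 in DMSO with Veh to 589 and 503 in DMSO with KLA (log2 fold change 2.69, SE 0.22, adjusted p = 3.2e-33).
At Fpr2, 13.1 kb downstream, it rose from 121 and 128 to 641 and 614 (log2 fold change 2.33, SE 0.21, adjusted p = 2.3e-27).
These are the sites where p65 and p300 rose while NCoR and HDAC3 were not called.
Ccrl2 rose 1845 bp upstream from 266 and 258 to 617 and 494 (log2 fold change 1.09, SE 0.19, adjusted p = 1.4e-07).
Cx3cr1 rose at 13.3 kb from 34.9 and 42.7 to 98.4 and 64 (log2 fold change 1.08, SE 0.27, adjusted p = 1.7e-04).
At the Cxcr4 TSS the mark fell from 265 and 295 to 21.4 and 11.8 (log2 fold change -4.03, SE 0.28, adjusted p = 4.7e-45).
The groups did not overlap at any of these 5 regions. The call for Ccrl2 1845 bp upstream was lost without DMSO KLA replicate 1 (log2 fold change 0.91 to 1.24 with 1 library left out). Leaving out DMSO Veh replicate 1 or DMSO KLA replicate 1 ended the call for Cx3cr1 at 13.3 kb (log2 fold change 0.72 to 1.34 with 1 library left out).

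To ask whether HDAC3 activity matters for the mark, KLA libraries with RGFP966 were compared with KLA libraries with DMSO.
RGFP966 left 6 of 24 member regions higher and none lower, against 26.9% of all regions higher and 9.53% lower. TMM gave 5 higher and 3 lower, against 5264 and 3534 of all 25045 regions.
Of the 6 called at library totals, 5 belonged to Cxcr4 and 1 to Ccrl2.
Cxcr4 went at 233 kb upstream from 4.53 and 0.842 to 38.8 and 39.3 (log2 fold change 3.71, SE 0.46, adjusted p = 4.9e-14).
It went at 23.3 kb upstream from 15.5 and 14.3 to 73.7 and 61.6 (log2 fold change 2.17, SE 0.31, adjusted p = 4.7e-11), and at 113 kb upstream from 60.9 and 64 to 189 and 152 (log2 fold change 1.45, SE 0.23, adjusted p = 5.7e-09).
These 3 regions lie outside the gene.
In the Cxcr4 intron 1.4 kb downstream the mark went from 29.8 and 21 to 84.3 and 52.8 (log2 fold change 1.41, SE 0.28, adjusted p = 2.3e-06).
At 129.9 kb upstream it went from 95.2 and 64 to 191 and 152 (log2 fold change 1.09, SE 0.22, adjusted p = 4.4e-06, and 0.91 under TMM, not called).
Ccrl2 rose 10.9 kb downstream from 68.6 and 56.4 to 169.8 and 129 (log2 fold change 1.25, SE 0.24, adjusted p = 7.9e-07).
The Cxcr4 TSS, where KLA had lowered the mark most, was low with RGFP966 also, at 23 and 21.7 against 21.4 and 11.8 (log2 fold change 0.39, SE 0.34, adjusted p = 0.31).
At the Fpr loci the values with RGFP966 were below those with DMSO.
Fpr1 at 12.2 kb counted 356 and 302 against 589 and 503 (log2 fold change -0.73, SE 0.19, adjusted p = 3.8e-04).
Fpr2 at 13.1 kb counted 347 and 317 against 641 and 614 (log2 fold change -0.92, SE 0.19, adjusted p = 7.0e-06), and at 14.1 kb 267 and 209 against 528 and 417 (log2 fold change -0.99, SE 0.20, adjusted p = 2.3e-06).
None of the 3 was past 2-fold with the library totals, and under TMM both Fpr2 regions were called lower (-1.10 and -1.18).
All RGFP966 libraries lay between the Veh and the DMSO with KLA libraries at these 3 regions. Without DMSO KLA replicate 2 or RGFP966 KLA replicate 1, Cxcr4 at 129.9 kb was no longer called (log2 fold change 0.85 to 1.42 with 1 library left out).

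**Figure D4:**
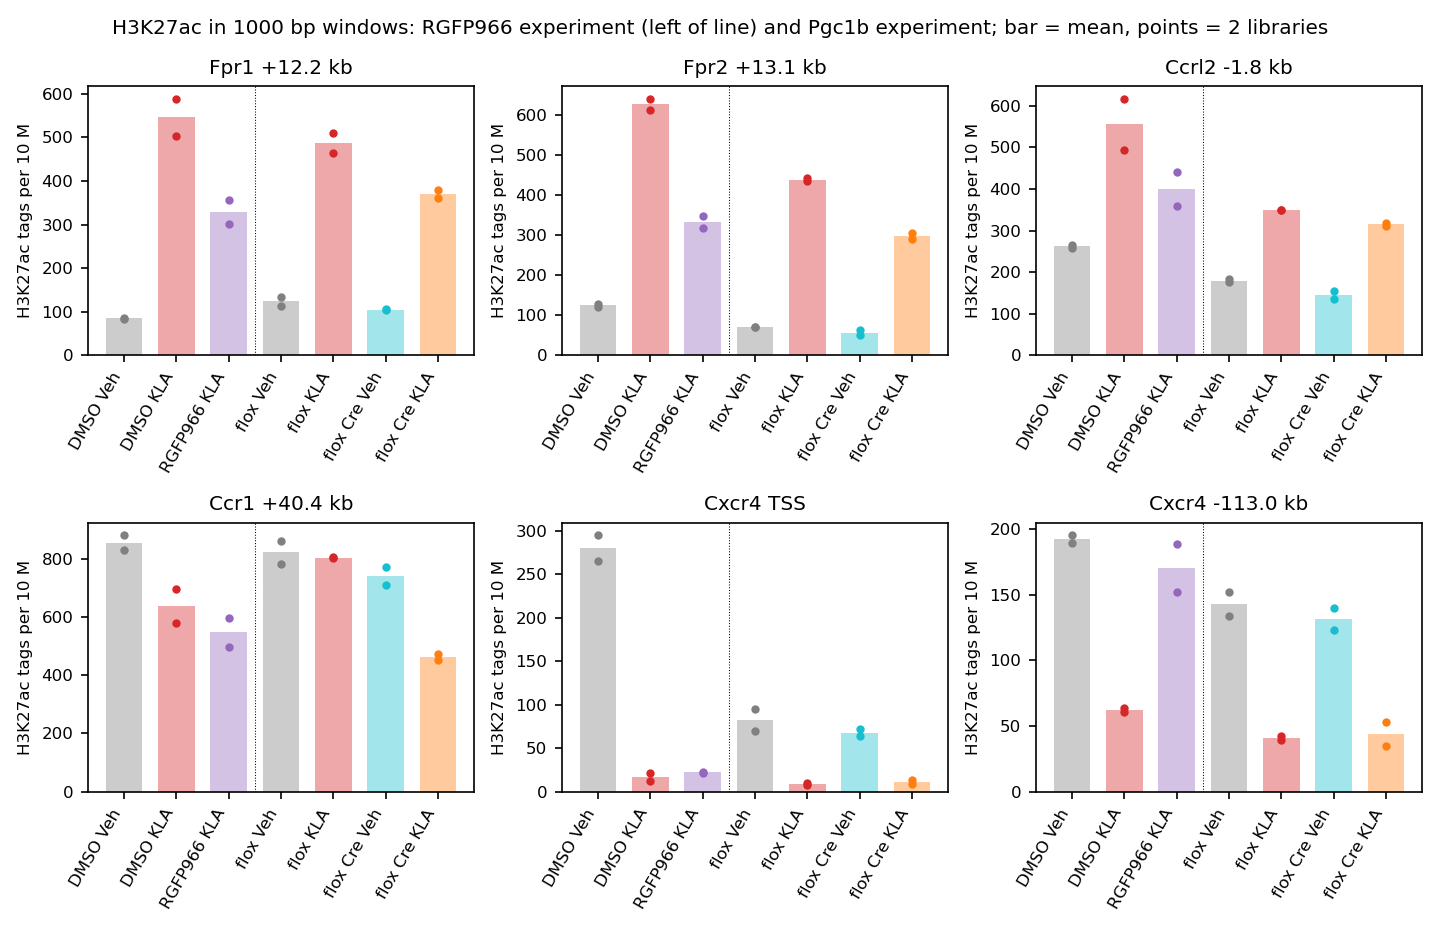
H3K27ac in tags per 10 M at 6 member regions, with the RGFP966 experiment left of the dotted line and the Pgc1b experiment right of it. Bars are means and the points are the 2 libraries of each group. RGFP966 bars at Fpr1 and Fpr2 stand between the Veh and KLA bars, and the Cxcr4 TSS is low in every KLA group.

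The Pgc1b experiment asked whether PGC1β is needed for the KLA response of H3K27ac.
KLA left 3 of 24 member regions higher and 7 lower in Pgc1b flox cells (5.22% and 25.6% of all). TMM gave 5 and 6 there, against 2480 and 3470 of all 25197 regions.
In Pgc1b flox Cre cells KLA left 6 higher and 7 lower (4.18% and 32.5% of all). TMM gave 6 and 4 there, against 2712 and 3598 of all 25197 regions.
Fpr1 at 12.2 kb rose from 135 and 112 to 510.1 and 464 in Pgc1b flox cells (log2 fold change 1.97, SE 0.10, adjusted p = 3.9e-70).
In Pgc1b flox Cre cells it rose from 104 and 105 to 361 and 378 (log2 fold change 1.82, SE 0.11, adjusted p = 8.7e-54).
Fpr2 at 13.1 kb rose from 71.3 and 71.4 to 435 and 442 in Pgc1b flox (log2 fold change 2.62, SE 0.12, adjusted p = 1.6e-85) and from 49.9 and 63 to 291 and 305 in Pgc1b flox Cre (log2 fold change 2.40, SE 0.14, adjusted p = 2.1e-62).
The 2 genotypes thus gained the mark at both sites.
The test of the difference between their responses gave a log2 difference of -0.15 (SE 0.16, adjusted p = 0.59) at Fpr1 and -0.22 (SE 0.20, adjusted p = 0.52) at Fpr2.
The Cxcr4 TSS fell from 94.8 and 69.3 to 10.4 and 8.06 in Pgc1b flox cells and from 63.6 and 72.3 to 9.39 and 13 in Pgc1b flox Cre cells (log2 fold changes -3.15 and -2.58).
In Pgc1b flox cells Cx3cr1 at 9.40 kb fell from 66.8 and 72 to 21.4 and 37.8 (log2 fold change -1.22, SE 0.25, adjusted p = 4.1e-06; -0.80 under TMM, not called). Between the genotypes, 1 of 24 member regions was lower in Pgc1b flox Cre with KLA (6.81% of all; 1 higher and 0 lower under TMM) and 1 with Veh (0.290% of all; none under TMM).
With KLA it was Ccr1 at 27.1 kb, at 96.7 and 120.3 in Pgc1b flox and 53.5 and 41.7 in Pgc1b flox Cre (log2 fold change -1.19, SE 0.19, adjusted p = 2.7e-09; -0.80 under TMM, not called).
The broad Ccr1 region at 40.4 kb counted 806 and 801 in Pgc1b flox and 474 and 453 in Pgc1b flox Cre (log2 fold change -0.79, SE 0.07, adjusted p = 4.7e-29).
The Ccr1 TSS counted 160.4 and 176 in Pgc1b flox and 86 and 98.3 in Pgc1b flox Cre (log2 fold change -0.87, SE 0.15, adjusted p = 1.0e-07), and both were under the 2-fold threshold.
Of the interaction tests, which compare the KLA responses of the genotypes, 1 member was higher and 1 lower (0.770% and 4.60% of all).
The lower one was again Ccr1 at 27.1 kb, whose KLA response was -0.36 in Pgc1b flox and -1.54 in Pgc1b flox Cre (difference -1.18, SE 0.24, adjusted p = 2.9e-05; -0.99 under TMM, not called).
The other was Cxcr4 43928 bp downstream, with few tags, at 10.7 and 11.8 in Pgc1b flox and 4.37 and 0.663 in Pgc1b flox Cre with Veh (difference of the responses 3.12, SE 1.06, adjusted p = 0.023).
That call was lost without Pgc1b flox KLA replicate 2, Pgc1b flox Cre Veh replicate 2 or Pgc1b flox Cre KLA replicate 2 (difference 2.37 to 4.95 with 1 library left out), and DESeq2 gave the region no adjusted p.
At 40.4 kb the difference of the responses was -0.65 (SE 0.09, adjusted p = 2.4e-10; -0.46 under TMM).
The median of all regions was itself lower in Pgc1b flox Cre with KLA, at a log2 value of -0.38.
The shares of tags in regions were 29.9% and 30.1% in Pgc1b flox against 22.4% and 22% in Pgc1b flox Cre, and their part in the Ccr1 differences was not tested. For Cx3cr1 at 9.40 kb in Pgc1b flox the call was lost without KLA replicate 1 (log2 fold change -1.69 to -0.87 with 1 library left out).

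NCoR was the floxed gene in the NKO experiment, which used narrower accessible regions and 26 tested member regions.
With KLA 5 were higher and 3 lower in WT (6.49% and 3.72% of all) and 2 higher and 1 lower in NKO (2.75% and 7.96%).
At Ccrl2, 20 bp from the TSS, H3K27ac rose from 26.5 and 35.1 with Veh to 74.8 and 86.9 with KLA in WT (log2 fold change 1.38, SE 0.26, adjusted p = 1.1e-04).
In NKO it was 64.1 and 77.2 with Veh and 50.4 and 82.6 with KLA, groups that overlapped (log2 fold change -0.11, SE 0.24, adjusted p = 0.83).
With Veh this Ccrl2 region was also the 1 member higher in NKO than in WT (0.973% of all), at 26.5 and 35.1 in WT and 64.1 and 77.2 in NKO (log2 fold change 1.19, SE 0.26, adjusted p = 0.0086).
Under TMM its log2 fold change was 0.90 and not called, and 1 member was called lower, Fpr2 at 14.1 kb (-1.25).
Its KLA responses differed between the genotypes by -1.48 (SE 0.36, adjusted p = 0.028), the 1 member called in that interaction (0.670% of all lower).
Under TMM the difference was -1.16 and not called (adjusted p = 0.22), and of the fits that left out 1 library it was called only without WT KLA replicate 1 and without NKO KLA replicate 2 (2 of 8).
Fpr2 at 14.1 kb rose in both genotypes, from 27.1 and 35.7 to 82.4 and 87.5 in WT and from 16.2 and 16.3 to 75.9 and 74.3 in NKO (log2 fold changes 1.42 and 2.21; difference 0.78, adjusted p = 0.36).
Fpr1 at 12.1 kb rose in WT, from 13.2 and 7.13 to 28.9 and 31.7 (log2 fold change 1.59, SE 0.44, adjusted p = 0.0084; not called without Veh replicate 2, at 1.19).
In NKO it was 18.4 and 15.1 with Veh and 34.5 and 17.4 with KLA (log2 fold change 0.65, adjusted p = 0.33), and the difference between the responses was not called (-0.94, adjusted p = 0.5).
Fpr2 at 13.1 kb, on few tags, was not called in WT (log2 fold change 0.83) or in NKO (0.27).
Ccr1 at 36.6 kb went from 61.2 and 61.6 to 161 and 165 in WT (log2 fold change 1.41, SE 0.18, adjusted p = 1.2e-07).
In NKO it was 74.5 and 72.5 with Veh and 106 and 124 with KLA (log2 fold change 0.64, SE 0.19, adjusted p = 0.014), and the difference between the responses was not called (-0.77, adjusted p = 0.15). With KLA in DMSO the heat map region of this Ccr1 site had a log2 fold change of -0.11. None of the 6 tested Ccr1 regions was called higher with KLA in DMSO or in Pgc1b flox cells.
The Cxcr4 TSS fell from 36.6 and 31.6 to 11.3 and 6.89 in WT (log2 fold change -1.88), and in NKO it was 48.7 and 29.6 with Veh and 15.4 and 2.08 with KLA (log2 fold change -2.06, SE 0.46, adjusted p = 0.0014).
Under KLA none of the 26 member regions differed between NKO and WT by the edgeR test (0.789% of all in either direction).
Of them 3 reached an unadjusted p under 0.05, and DESeq2 and TMM also called 0. The Cxcr4 TSS in WT lost its call without Veh replicate 1 or KLA replicate 2 (log2 fold change -2.29 to -1.58 with 1 library left out). The call for the Cxcr4 TSS in NKO was lost without Veh replicate 1 or KLA replicate 2 (log2 fold change -4.17 to -1.33 with 1 library left out). Leaving out WT Veh replicate 1, WT Veh replicate 2 or NKO Veh replicate 2 ended the call for Ccrl2 with Veh (log2 fold change 1.01 to 1.42 with 1 library left out).

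ERK inhibition was used to ask whether the kinase is needed for PGC1b and NCoR binding in KLA-treated cells.
For PGC1b 1 of 73 member regions was lower with ERKi (0.178% of all) and 0 under TMM.
It was Ccr1 at 30.4 kb, 73 and 83.4 in DMSO with KLA and 10.9 and 11.6 in ERKi with KLA (log2 fold change -2.77, SE 0.59, adjusted p = 0.039).
The strongly induced PGC1b region 1.01 kb upstream of Fpr1 counted 219 and 149 with DMSO and 93.9 and 142 with ERKi (log2 fold change -0.63, SE 0.34, adjusted p = 0.41). For NCoR 42 of 81 member regions were lower with ERKi and 0 higher, against 48.6% and 0.634% of all regions. But under TMM 1 was lower and 1 higher, against 1947 and 1985 of all 57573 regions, and 9 of the 42 changed sign.
The share of tags in regions was 34.2% and 33.3% in the KLA libraries and 15.8% and 15% with ERKi, and the median of all regions stood at a log2 value of -1.20.
The ERKi libraries carry another library date than the KLA libraries, whose labels name no DMSO, unlike those of the PGC1b control. ERKi, solvent and date therefore cannot be told apart for NCoR.
The called NCoR values are therefore given with their TMM values.
Ccr2 at 30.5 kb upstream went from 128 and 127 to 31.3 and 19.8 (log2 fold change -2.31, SE 0.31, adjusted p = 1.5e-04) and stayed called under TMM (-1.15).
Fpr1 at 1.01 kb upstream went from 183 and 164 to 50.7 and 49.1 (log2 fold change -1.79, -0.63 under TMM).
Ccr1 at 31.9 kb went from 207 and 156 to 50.7 and 41.4 (-1.97, -0.80 under TMM), and neither was called under TMM.
Ccrl2 at the TSS, by contrast, was 227 and 214 without ERKi and 129 and 164 with it and was not called (log2 fold change -0.59, SE 0.27, adjusted p = 0.074).
Nor was Cx3cr1 at 9.41 kb, at 541 and 493 without and 342 and 327 with ERKi (log2 fold change -0.63, SE 0.14, adjusted p = 0.0028). Both of these uncalled values are at library totals and fell by less than the median of all regions, which stood at -1.20. They therefore do not show a fall beyond that of the regions in general.
By gene the lower regions numbered 14 of 24 at Ccr1, 6 of 8 at Ccr2, 4 of 14 at Ccrl2, 6 of 13 at Cxcr4, 4 of 5 at Fpr1, 8 of 11 at Fpr2 and 0 of 6 at Cx3cr1, and under TMM the 1 lower region was at Ccr2 and the 1 higher at Ccrl2. Without any 1 library, PGC1b at Ccr1 30.4 kb was no longer called (log2 fold change -2.86 to -2.67 with 1 library left out).

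In the osteoclast cultures, where RANKL stimulates RANK on myeloid precursors, p300 was higher on Day4 at 21 of 34 member regions and lower at none, against 62.2% of all regions higher and 0.248% lower.
Under TMM 5 were higher and 1 lower, against 1884 and 701 of all 20143 regions.
The share of tags in regions was 3.08% and 3.16% on Day0 and 9.61% and 9.53% on Day4, and its part in the rise was not tested.
The higher regions were 8 of 9 at Cxcr4, 7 of 14 at Ccr1, 3 of 3 at Cx3cr1 and 3 of 3 at Ccrl2. They were 0 of 2 at Ccr2, 0 of 1 at Fpr1 and 0 of 2 at Fpr2. Under TMM Cxcr4 had 3 higher and 1 lower, Ccr1 had 1 higher, Cx3cr1 had 1 higher and Ccrl2 had none.
At Cx3cr1, 13.3 kb downstream, p300 went from 0.879 and 0 to 80.2 and 63.5 (1 tag against 138, ratio 116, interval 20.6 to 4634).
At Ccr1, 26 kb downstream, it went from 1.76 and 2.13 to 112 and 105 (3 tags against 208, ratio 58.5, interval 19.8 to 286).
Both were also called under TMM.
Cxcr4 rose 113 kb upstream from 40.4 and 21.3 to 268 and 351 (log2 fold change 3.22, SE 0.37, adjusted p = 1.1e-04, and 1.66 under TMM).
It rose 129.9 kb upstream from 18.5 and 14.9 to 135 and 166 (log2 fold change 3.12, SE 0.39, adjusted p = 1.6e-04; 1.56 under TMM).
These are 2 of the upstream Cxcr4 sites named above for KLA, although the KLA and RANKL cultures are separate experiments.
The Cxcr4 intron at 1.4 kb was 44 and 34.1 on Day0 and 34.2 and 32.9 on Day4 (log2 fold change -0.24, SE 0.48, adjusted p = 0.66; -1.80 under TMM, called lower).
Cx3cr1 at 9.41 kb was 27.3 and 55.4 on Day0 and 147 and 158 on Day4 (log2 fold change 1.97; 0.42 under TMM).
For ERK1, 1 of 30 member regions was higher on Day4 (2.33% of all; 0 under TMM), Ccr1 at 19 kb, from 6.03 and 10.5 to 62.2 and 45.4 (log2 fold change 2.69, SE 0.67, adjusted p = 0.042).
The Day4 ERK1 library titled as replicate 2 is described as replicate 3 with another library date. Its description also lacks the tag NCoRWT, which the other ERK1 libraries of Day0 and Day4 carry. Date and tag therefore cannot be fully told apart from day for it. For ERK1 at Ccr1 19 kb the call was lost without Day0 replicate 1, Day4 replicate 1 or Day4 replicate 2 (log2 fold change 2.34 to 3.12 with 1 library left out).

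**Figure D5:**
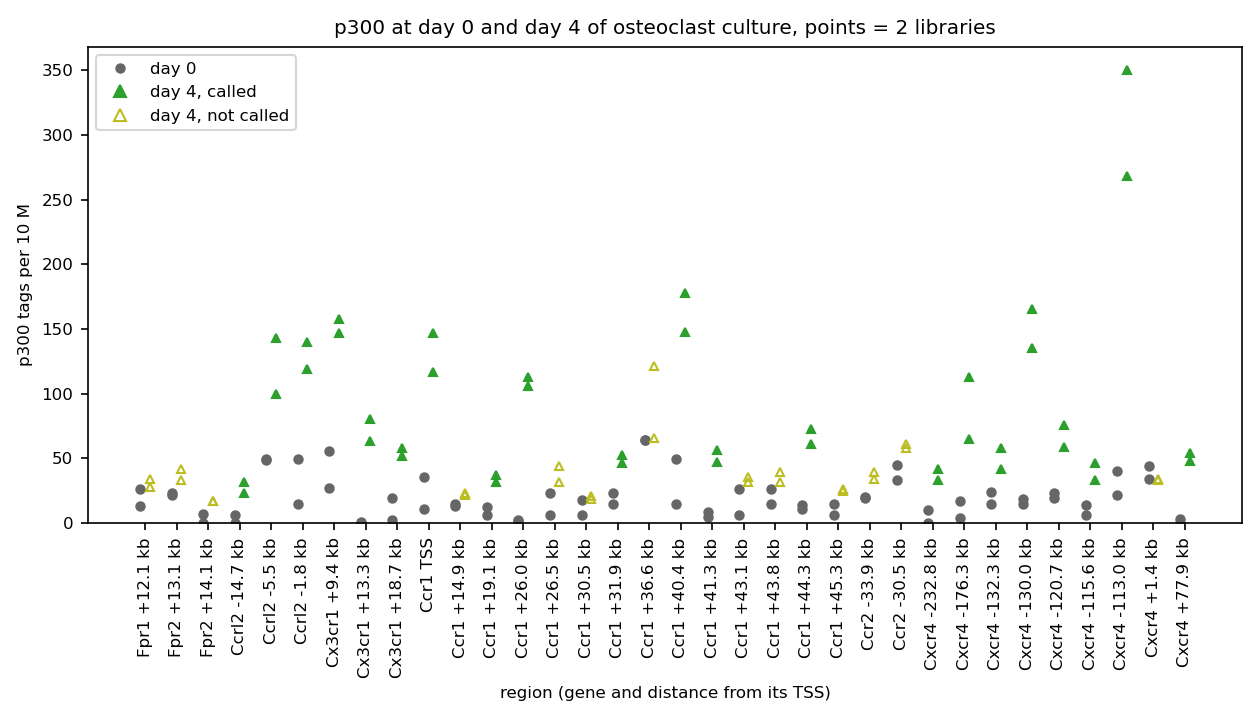
Levels of p300 in tags per 10 M at the 34 tested member regions on Day0 and Day4, with both libraries of each group. Of the regions, 21 were called higher on Day4 and none lower.

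The other genes of the chemotaxis pathway were described from lists of 34 further chemoattractant receptors, 27 genes of receptor signalling and 18 ligands.
With KLA p65 was higher at 78 and lower at 6 of 126 regions of the other receptors, 120 and 14 of 217 of the signalling genes, and 84 and 0 of 98 of the ligands, with median log2 fold changes of 1.59, 1.5 and 2.39 against 1.33 at the member regions and 1.46 over all.
For p300 the medians were 0.19, 0.31 and 1.74 against -0.11 at the members and 0.65 over all, with 85 of 127 ligand regions higher and 4 lower. Of all regions 57.0% were higher and 5.43% lower for p65, and 42.1% and 12.9% for p300.
NCoR was higher at 44 and lower at 11 of 106 ligand regions, and at 25 and 35 of 142 regions of the other receptors. The shares of all NCoR regions were 23.4% higher and 16.7% lower.
PU.1 was lower at 40 and higher at 5 of 148 regions of the other receptors, and lower at 4 and higher at 12 of 71 ligand regions. The shares of all PU.1 regions were 21.7% lower and 4.53% higher.
H3K27ac with KLA in DMSO was higher at 8 and lower at 20 of 46 regions of the other receptors, 3 and 40 of 84 of the signalling genes and 9 and 5 of 18 of the ligands. The shares of all regions were 6.73% higher and 28.1% lower.
The ligand list thus had higher medians than the receptor lists and the members in these tables, a description that carries no test.

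To describe which other regions varied like the members, the H3K27ac levels of the most heavily marked region of each gene were correlated with all 18504 tested regions over the 8 WT and NKO libraries, which share treatment groups and depth.
The Fpr2 region at 14.1 kb was most like regions near Zdhhc6 (Pearson r = 0.997), Usp42 (0.994), Esr2 (0.990), Has1 (0.987), a hyaluronan synthase gene that neighbours Fpr1, and Ifi44 (0.984).
Fpr1 at 5.4 kb was most like Hnrnpul1 (0.971) and Acvr1 (0.960), Ccrl2 at the TSS like Igsf6 (0.995) and 4930447F24Rik (0.993), and Cx3cr1 at 13.5 kb like Sys1 (0.989) and Rreb1 (0.977).
Ccr1 at 45.4 kb was most like Chl1 (0.988) and Myadm (0.988), and Cxcr4 at 129.9 kb upstream like Arhgap24 (0.984) and Arhgef28 (0.976).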

How the data were processed

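The deposited tables hold raw tag counts per region: per the file headers and the methods, the authors aligned single-end ChIP-seq reads to mm10 with Bowtie2, called reproducible peaks by IDR and counted tags with HOMER, unnormalised and with at most 3 tags per position. No tool versions were given in the sources used here. H3K27ac cells were fixed with formaldehyde alone and factor samples also with a longer cross-linker. The 74 columns in 15 tables cover 70 of 100 samples in 50 groups of 2, NCoR libraries stand in 2 tables, and the other 30 samples were not analysed here.

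Counts were divided by the library totals in the headers to give tags per 10 M. Regions with at least 4 tags (factors) or 16 tags (H3K27ac) in 1 library or more were tested, 1 model per table and 25 comparisons in all, with the two-sided quasi-likelihood test of edgeR 4.0.16 in R 4.3.3 at those totals. P-values were adjusted by Benjamini-Hochberg over all regions of a table. A region was called at an adjusted p under 0.05 and a change over 2-fold, and SE is the log2 fold change divided by the square root of F. Ratios of 1 to 3 tags carry exact 95% intervals, which like the floor of 3 tags cover counting error only. Alternatives were TMM, DESeq2 1.42.0, no filter, a replicate block, other site distances and each library left out. Simulated 3-fold changes in 200 regions were recovered at 0.5% for Fosl2 (31283 regions), 21.5% for p300 on Day4 (20143), 83.5% for NCoR (55045) and 100% for PU.1 (50690). Recovery was 3% for ERK1 on Day4, 26% for ERK1 with KLA and 34% for PGC1b with KLA in DMSO. It was 53% to 100% in the other comparisons simulated. Where recovery was low, an uncalled region does not show that nothing changed. Other scripts used Python 3.11.15 with pandas 2.3.3, numpy 2.4.6, scipy 1.17.1, Biopython 1.88 and matplotlib 3.10.9.

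The members, gene lists and tests were chosen with earlier results of these data known. By rule the text names, per gene, the site nearest the TSS within 2 kb, the 3 other sites in most tables and the member region with the lowest p in each direction of a comparison. Other sites were chosen after their values were seen: Ccr1 at 14.9, 19, 27.1, 28.4, 30.4 and 31.9 kb, Cxcr4 at 233, 129.9, 80.2 and 23.3 kb upstream and 5134 bp downstream, Fpr1 at 3.9 kb, Fpr2 at 18.3, 27.3 and 30.0 kb and 0.8 kb upstream, Ccr2 at 22.3 kb and Ccrl2 at 25 kb upstream. The NFκB search was widened to its full consensus after a narrower string had been tried.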

Additional observations from a re-analysis of the deposited data

Results flagged for a closer look

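The KLA response of H3K27ac differed between genotypes at 3 member regions by the interaction test of edgeR. At Ccrl2, 20 bp from the TSS, the response in NKO minus that in WT was -1.48 on the log2 scale (SE 0.36, adjusted p = 0.028), but it was -1.16 and not called under TMM, and of 8 fits with 1 library left out it was called in 2, without WT KLA replicate 1 and without NKO KLA replicate 2.

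Ccr1 at 27103 bp downstream had a response in Pgc1b flox Cre minus that in Pgc1b flox of -1.18 (SE 0.24, adjusted p = 2.9e-05), or -0.99 under TMM, where it was under 2-fold and not called.

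Cxcr4 at 43928 bp downstream had a difference of 3.12 (SE 1.06, adjusted p = 0.023), or 3.31 under TMM, on few tags. It was not called without Pgc1b flox KLA replicate 2, Pgc1b flox Cre Veh replicate 2 or Pgc1b flox Cre KLA replicate 2 (2.37 to 4.95 with 1 library left out), and DESeq2 gave it no adjusted p. Its tags per 10 M were 10.7 and 11.8 with Veh and 6.12 and 2.48 with KLA in Pgc1b flox, and 4.37 and 0.663 with Veh and 6.50 and 11.1 with KLA in Pgc1b flox Cre. With 2 libraries per group no library could be tested as an outlier.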

How the results depend on the processing

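Numbers of called member regions under TMM and DESeq2 were within 1.5 times the reported ones in most comparisons. The exceptions were Fosl2 with KLA (26 and 28 against 15), NCoR with ERKi (2 and 2 against 42), p300 on Day4 (6 and 3 against 21), ERK1 on Day4 (0 and 0 against 1), the NKO interaction (0 and 0 against 1), Pgc1b flox Cre with Veh (0 and 0 against 1), the Pgc1b interaction (1 and 0 against 2), PGC1b with ERKi (0 under TMM against 1) and Pgc1b flox Cre with KLA (0 under DESeq2 against 1). DESeq2 gave no adjusted p at Cxcr4 43928 bp downstream, the region called with Veh and in the Pgc1b interaction. TMM moved the median of all regions from 1.46 to 0.24 for p65, from -1.20 to -0.04 for NCoR with ERKi and from 1.84 to 0.28 for p300 on Day4.

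Signs reversed under TMM for 9 called regions of NCoR with ERKi, 3 of p300 on Day4 and 2 of p65. Those at the named sites also reversed under DESeq2 (second value), and were, for p65, Ccr1 289 bp downstream (-0.11 and -0.081). For NCoR with ERKi they were Ccr1 at 36.7 (0.034 and 0.047), 19.1 (0.10 and 0.11), 39.5 (0.12 and 0.13) and 27.9 kb (0.13 and 0.14), Cxcr4 at 113 kb upstream (0.048 and 0.062), and Ccr2 at 33.6 kb upstream (0.015 and 0.030) and 1.24 kb downstream (0.049 and 0.062). For p300 on Day4 they were Ccr1 at 31.9 kb (-0.25 and -0.17) and Ccrl2 at 5.49 kb upstream (-0.26 and -0.21). The rest, under TMM, were Ccr1 26479 bp downstream for p65 (-0.16), Fpr1 1128 and 12868 bp downstream for NCoR with ERKi (0.14 and 0.16) and Cxcr4 132332 bp upstream for p300 on Day4 (-0.26).

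Leaving out 1 library gave 22 to 41 called for NCoR, 13 to 39 for HDAC3, 32 to 57 for p65, 0 to 32 for Fosl2, 23 to 25 for PU.1, 13 to 29 for PGC1b, 5 to 10 for ERK1, 53 to 68 for p300, 15 to 22 for PGC1b in DMSO, 0 to 1 for PGC1b with ERKi, 23 to 37 for NCoR with ERKi, 0 to 2 for ERK1 and 10 to 26 for p300 on Day4. For H3K27ac with KLA it gave 4 to 6 in WT, 1 to 5 in NKO, 11 to 13 in DMSO, 10 to 11 in Pgc1b flox and 12 to 13 in Pgc1b flox Cre, and 6 to 7 for RGFP966. It gave 0 to 1 for NKO with Veh, the NKO interaction and Pgc1b flox Cre with Veh, and 1 to 2 for Pgc1b flox Cre with KLA and the Pgc1b interaction. The lowest counts came without NCoR KLA replicate 2, HDAC3 Veh replicate 2, p65 KLA replicate 2, either Fosl2 Veh library, PGC1b Veh replicate 1, ERK1 KLA replicate 2, NCoR KLA replicate 1 (ERKi) and p300 Day4 replicate 2. A fit with 1 library in a group takes that library to vary like the others.

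Replicate numbers were not used to pair the samples in the main fits. The 31 correlations of the replicate differences between groups ranged from -0.027 to 0.026, which cannot show whether same-numbered libraries shared a mouse or preparation. With the replicate block 4 regions were called for Fosl2 and 0 for PGC1b with ERKi. Without the filter no count moved by over 1.5 times. The cause of these changes was not tested, and shallow regions limit the folds given.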
